A study of Homo sapiens with 4 samples.

Results

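The genes examined were 42 genes of the fibroblast growth factor (FGF) to ERK pathway and of its feedback arm, taken by gene symbol from a fixed list: 6 secreted FGF ligands, 3 intracellular FGFs, 5 FGF receptor genes, 12 genes of the adaptor, RAS, RAF, MEK and ERK cascade, 10 feedback inhibitors and 6 transcription targets. They were 42 of 62218 annotated genes and held 436 annotated transcripts. Their expression was read from Nanopore cDNA libraries of wild-type human embryonic stem cells (hESCs) of the H1 line, with 2 replicates of naïve hESCs grown in the FINE condition to 50% confluency and 2 replicates of primed hESCs grown in mTeSR to between 60% and 70% confluency. The naïve cells had been converted from the H1 primed cells and were kept at low oxygen on Matrigel with reduced growth factors. Their medium held leukemia inhibitory factor, activin A and basic FGF together with several small-molecule inhibitors. These were the MEK inhibitor PD0325901, the RAF inhibitor SB590885, the tyrosine kinase inhibitor dasatinib, the CDK inhibitor AZD5438 and a ROCK inhibitor. The primed cells were kept on Matrigel at normal oxygen. For their medium the methods list no inhibitor and give no composition, so whether it also held FGF is not stated. Inhibitors, medium, type of Matrigel, oxygen and confluency all changed together with the state, so their parts in any difference cannot be told apart. All 4 libraries come from a single cell line. The 4 libraries held between 129276054 and 161548901 counts in all, and each value below is the count of alignments over the genomic span of the transcript of the gene with the largest mean count. In such bulk libraries, fewer cells expressing a gene and less RNA per cell cannot be told apart.

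FGF ligands bind receptor tyrosine kinases at the cell surface, and the activated receptors recruit the adaptors FRS2 and GRB2 and the exchange factor SOS, which loads RAS with GTP. RAS then activates the kinases RAF, MEK and ERK in turn, and ERK switches on transcription factors such as those of the ETV and EGR families as well as inhibitors that dampen the same pathway, among them the DUSP phosphatases and the Sprouty (SPRY) and SPRED proteins. Primed hESCs are known to depend on FGF signalling, whereas media for naïve hESCs commonly block MEK.

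The labelled states were checked against marker genes. All 8 naïve markers were lower and all 6 primed markers were higher in primed hESCs, although the naïve marker KLF17 differed by a log2 fold change of only −0.41 and was not lower when scaled by library size. Of 4 pluripotency markers shared by both states, 2 were higher in primed hESCs (SOX2 and LIN28A, log2 fold changes 2.38 and 2.11). NANOG was lower (−1.62), and 1 did not pass. Markers of other cell types were counted too. Of 4 differentiation markers, 1 was tested and called higher, having passed the count filter only through its primed libraries. Of 6 trophoblast markers, 5 were lower in primed hESCs, and KRT7 did not pass, with 42 and 74 naïve against 103 and 81 primed counts. The summed level of the list was 2046 to 2369 CPM (counts normalised to a common library total with the trimmed mean of M-values, TMM) in naïve against 6.92 to 7.04 CPM in primed libraries, most of it from the hormone gene CGA. Of 5 fibroblast markers, COL1A1 and COL1A2 were higher in primed hESCs, with a summed level over the list of 57.7 to 59.6 CPM against 2.55 to 3.56 CPM. COL3A1 did not pass, with 35 and 18 naïve against 37 and 43 primed counts, while DCN had at most 1 count in any library and LUM at most 5. These levels moved with the state, and their part in the results that follow was not tested.

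Of the 42 genes, 41 passed the filter of at least 10 counts in at least 2 libraries, and FGF8 did not, with 5 and 3 naïve against 0 and 2 primed counts. ETV1, EGR1, DUSP6, SPRED1, SPRED3, FGF17 and FGF19 stayed under 10 counts in each naïve library and passed only through their primed libraries. FGF4 passed only through its naïve libraries. For these genes the direction of a call largely followed from the filter, so the call is no separate support for it. The same holds in part for ETV5, FGFRL1 and SPRY2, which fell under 10 counts in a naïve library and needed a primed library to pass. By edgeR's quasi-likelihood test, 24 genes were higher and 9 were lower in primed than in naïve hESCs at an adjusted p under 0.05, and 8 did not pass. Over all 27633 genes tested, 37.4% were called higher and 32.6% lower, 70.0% in all. The 2 states thus differed across most of the transcriptome, and a call by itself says little about these genes. Their median log2 fold change was 0.90 beside 0.08 over all genes tested. In the TMM-scaled values both primed libraries lay above both naïve libraries for 28 members and below them for 13, beside 44.8% and 39.6% of all genes tested. A total of 20 members were called with a log2 fold change above 1, against 28.6% of all genes tested, and 6 with one below −1, against 18.5%.

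The scaling mattered for the small differences. With library size in place of TMM, the median of all genes tested moved from 0.08 to 0.72 and the members split into 29 higher and 5 lower, against 24 and 9 in the TMM fit. All 24 higher calls held under library size, and 23 of them held in DESeq2, the exception being SPRY1. Of the 9 lower calls, 5 held under both, namely FGF4, FGFR3, MAPK3, FOS and IER3. The plot of fold changes by role shows these shifts gene by gene.

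**Figure D1:**
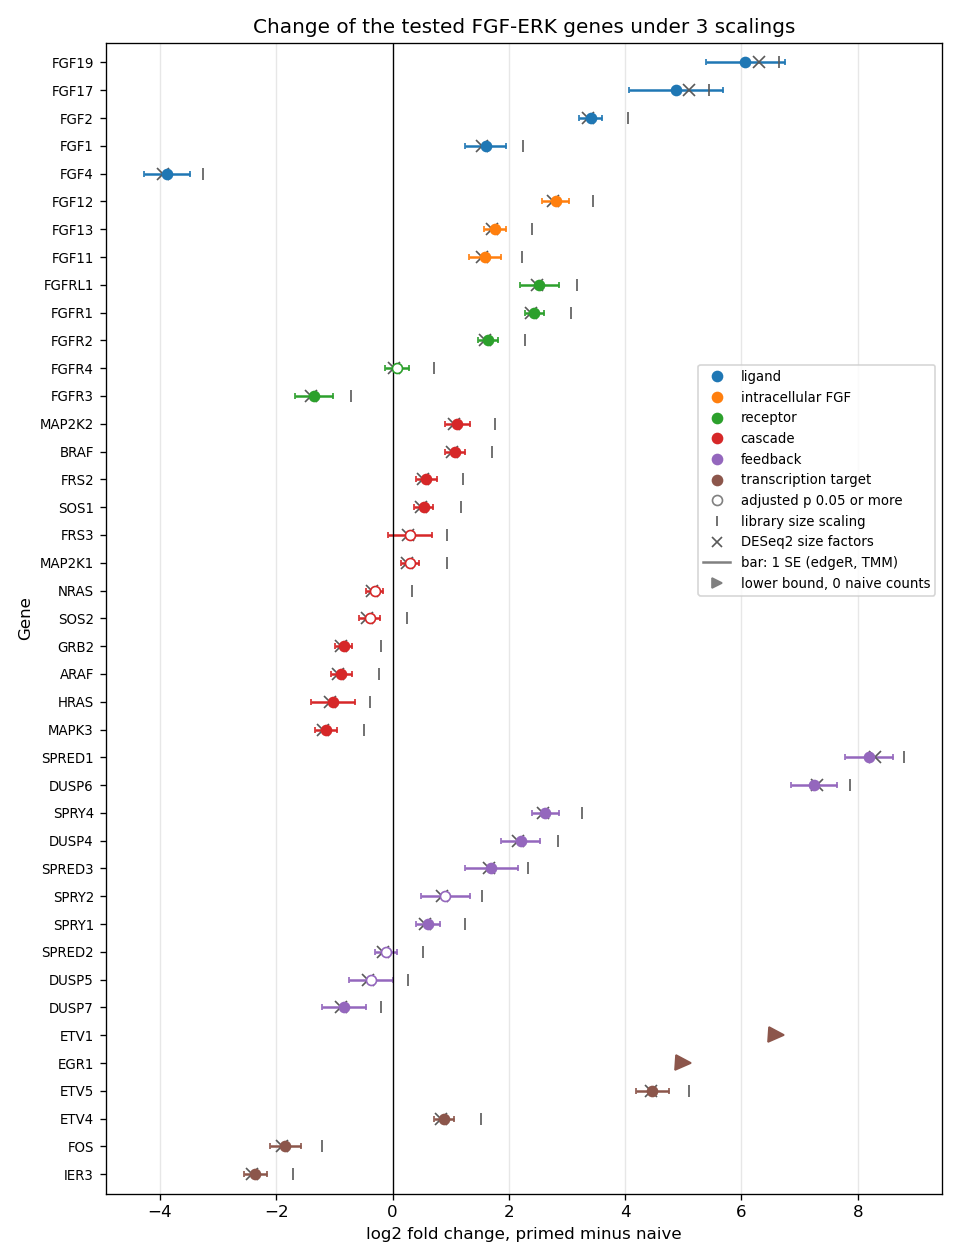
Log2 fold change (x axis, primed minus naïve) of the 41 tested genes (y axis), coloured by role; circles with bars of 1 SE are from edgeR with TMM, open where the adjusted p was 0.05 or more, ticks and crosses show library size scaling and DESeq2, and triangles mark lower bounds for ETV1 and EGR1, which had 0 naïve counts. The largest positive values belonged to feedback inhibitors, transcription targets and ligands, while the 12 cascade genes lay between −1.14 and 1.11.

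The feedback inhibitors included some of the largest differences. Of 10 genes, 6 were higher in primed hESCs (DUSP4, DUSP6, SPRY1, SPRY4, SPRED1 and SPRED3), 1 was lower (DUSP7) and 3 did not pass (DUSP5, SPRY2 and SPRED2), with a median log2 fold change of 1.30. DUSP6, a cytoplasmic phosphatase that removes the activating phosphates from ERK, was counted 1 and 2 times in naïve and 320 and 285 times in primed replicates. SPRED1, a membrane-bound inhibitor that brings neurofibromin to RAS, was counted 0 and 2 times in naïve and 359 and 447 times in primed replicates. Both genes were close to undetected in each naïve library and well counted in each primed library, although the primed libraries held fewer counts in all.

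Because 1 to 3 naïve counts leave a fold change poorly bounded, a ratio was formed from the summed counts with an exact 95% interval that covers counting error only. DUSP6 was 163.0-fold higher in primed hESCs, with an interval of 55.5 to 792.7. SPRED1 was 325.7-fold higher, with an interval of 89.9 to 2694. The edgeR test, which both genes entered only through their primed libraries, gave an adjusted p of 1.71e-20 for DUSP6 and of 7.41e-22 for SPRED1. The fitted log2 fold change of SPRED1, 8.19, ran from 7.33 without naïve replicate 1 to 11.5 without naïve replicate 2, which held both of its naïve counts, and the call held in each case. DUSP6 lies on chromosome 12 at 89347235 to 89352501 on the minus strand (GRCh38), and a transcript of another gene, ENSG00000274021, crosses it with 1, 1, 268 and 230 counts in naïve replicates 1 and 2 and primed replicates 1 and 2. Counting ignored strand, so the alignments of these overlapping genes cannot be separated. SPRED1 spans 38252836 to 38357249 on the plus strand of chromosome 15, and no other gene overlapped it.

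The nuclear phosphatase DUSP4 had 12 and 15 naïve against 65 and 90 primed counts, a log2 fold change of 2.20 ± 0.34 (SE, n = 2 per state; edgeR adjusted p = 2.05e-07). SPRY4, a Sprouty inhibitor acting upstream of RAF, had 29 and 35 naïve against 228 and 263 primed counts, a log2 fold change of 2.63 ± 0.24 (edgeR adjusted p = 3.80e-13). SPRED3 was counted at 9 and 5 in naïve and 27 and 30 in primed libraries, a log2 fold change of 1.70 ± 0.45 (edgeR adjusted p = 9.77e-04). The higher value in primed hESCs was thus shared by a member of each of the DUSP, Sprouty and SPRED families, but not by every member. SPRY1 had 100 and 104 naïve against 180 and 206 primed counts, a log2 fold change of 0.61 ± 0.20, and its edgeR adjusted p of 0.00736 was lost in DESeq2 and without primed replicate 2. SPRY2 had 12 and 9 against 23 and 26 counts and did not pass with edgeR (adjusted p = 0.0532), although it was called higher under library size and without naïve replicate 1.

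SPRED2 was counted at a similar level in each library, at 8.14 ± 0.033 CPM in naïve and 7.52 ± 0.73 CPM in primed hESCs (mean ± SD, n = 2), with an edgeR log2 fold change of −0.11 ± 0.18 that turned to 0.52, called higher, with library size scaling. SPRED2 therefore had no stable direction while SPRED1 differed strongly. DUSP5, a nuclear ERK phosphatase, had 19 and 23 naïve and 24 and 16 primed counts, and its log2 fold change of −0.37 turned to 0.26 with library size. DUSP7, a cytoplasmic ERK phosphatase, was called lower from 27 and 25 naïve against 16 and 20 primed counts (log2 fold change −0.84 ± 0.37, edgeR adjusted p = 0.0434). This call was lost under library size, in DESeq2, with no count filter, for the sum over transcripts, and without naïve replicate 1, primed replicate 1 or primed replicate 2.

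**Figure D2:**
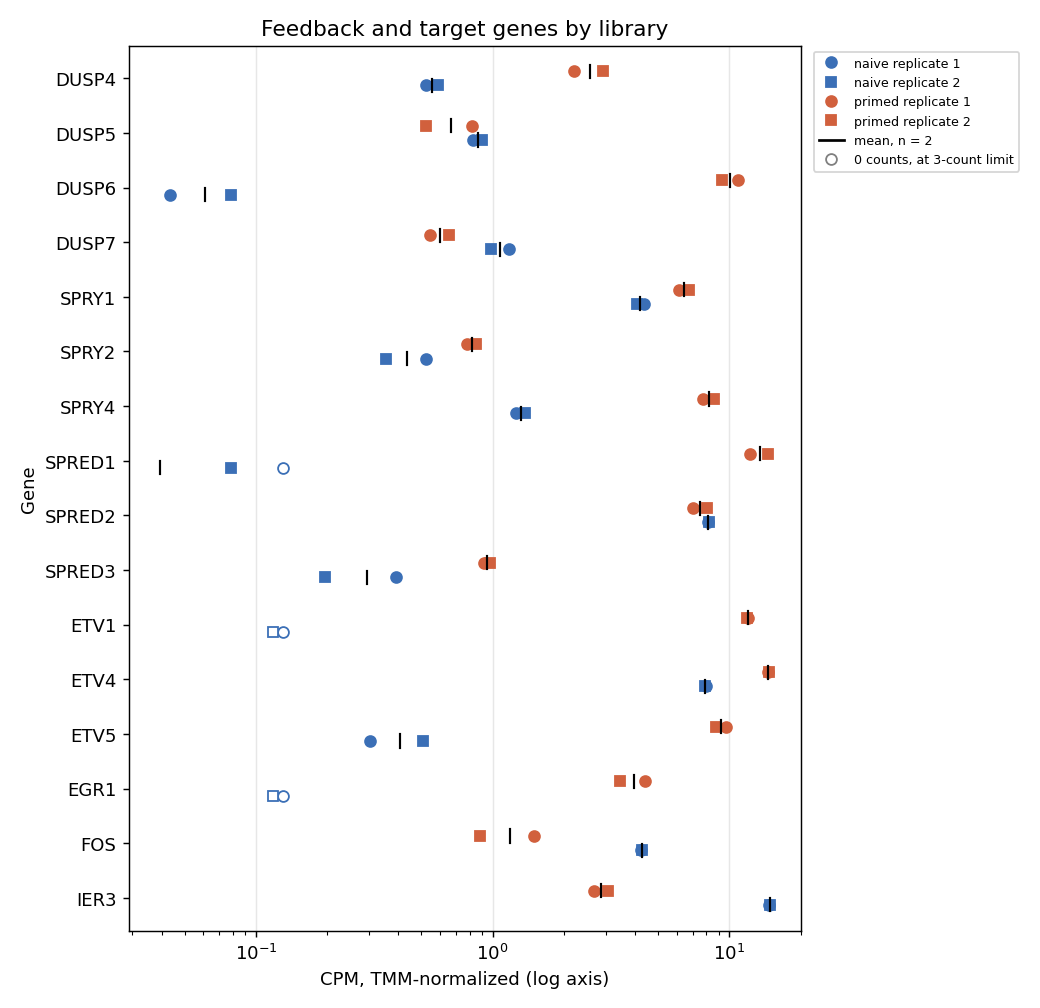
TMM-normalised CPM (x axis, log scale) of the feedback and transcription target genes (y axis) in each of the 4 libraries, with black ticks at the mean of 2 replicates; open symbols stand at the level of 3 counts for libraries with 0 counts. DUSP6, SPRED1, ETV1 and EGR1 lie near or at the limit of detection in naïve and between 3.46 and 14.6 CPM in primed libraries, whereas FOS and IER3 lie higher in naïve libraries.

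All 6 transcription targets passed the test, 4 of them higher in primed hESCs (ETV1, ETV4, ETV5 and EGR1) and 2 lower (FOS and IER3), with a median log2 fold change of 2.68. ETV1, ETV4 and ETV5 are the PEA3-type ETS transcription factors, whose genes are widely used as readouts of FGF signalling. ETV1 had 0 counts in both naïve replicates, against 354 and 362 in primed replicates. None of its 21 annotated transcripts had a count in a naïve library. Set against 3 counts per naïve library, the limit that a count of 0 allows, ETV1 was at least 96.2-fold higher in primed hESCs. ETV1 entered the edgeR test only through its primed libraries (adjusted p = 8.89e-22). ETV5 had 7 and 13 naïve against 284 and 269 primed counts, a log2 fold change of 4.47 ± 0.29 (edgeR adjusted p = 1.00e-17).

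ETV4 differed less, with 183 and 201 naïve against 428 and 449 primed counts and a log2 fold change of 0.88 ± 0.17 (edgeR adjusted p = 1.29e-05). The 3 related genes were thus all called higher in primed hESCs, from an undetected, a low and a well-counted naïve level. The span of ETV4 is crossed by a transcript of DHX8 with 701 to 839 counts in each library, more than ETV4 itself, and that of ETV5 by DGKG and by the enclosed antisense ETV5-AS1, which had 0 and 3 naïve against 101 and 68 primed counts. After the counts of the enclosed transcript were subtracted, ETV5 still differed by 4.17.

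EGR1 and FOS are textbook immediate-early genes, transcribed within minutes of ERK activation, and they moved in opposite directions. EGR1, a zinc-finger transcription factor, also had 0 counts in both naïve replicates, against 130 and 106 in primed replicates. It was at least 31.8-fold higher in primed hESCs against 3 counts per naïve library. EGR1 too entered the edgeR test only through its primed libraries (adjusted p = 2.61e-15). FOS, a subunit of the AP-1 transcription factor, had 98 and 109 naïve against 44 and 27 primed counts, a log2 fold change of −1.84 ± 0.27 (edgeR adjusted p = 1.11e-07). IER3, an immediate-early gene linked to cell survival, had 339 and 379 naïve against 79 and 94 primed counts, a log2 fold change of −2.36 ± 0.19 (edgeR adjusted p = 1.33e-14). The naïve and primed libraries did not overlap for any of these 3 genes under either scaling. IER3 is crossed by IER3-AS1, which had 336, 356, 76 and 96 counts in naïve replicates 1 and 2 and primed replicates 1 and 2, nearly the same values, so that the strand these alignments came from is unknown. EGR1 and FOS were overlapped by no other gene.

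Because EGR1 and FOS are induced by the same pathway yet differed in direction, the 250 bases upstream of their annotated start sites are shown from RefSeq (GRCh38.p14), at chr5:138465229-138465478 on the plus strand for EGR1 and chr14:75278578-75278827 on the plus strand for FOS, both 5′ to 3′ on the gene's strand. Capitals mark matches to the CArG box, the sequence bound by serum response factor.
EGR1: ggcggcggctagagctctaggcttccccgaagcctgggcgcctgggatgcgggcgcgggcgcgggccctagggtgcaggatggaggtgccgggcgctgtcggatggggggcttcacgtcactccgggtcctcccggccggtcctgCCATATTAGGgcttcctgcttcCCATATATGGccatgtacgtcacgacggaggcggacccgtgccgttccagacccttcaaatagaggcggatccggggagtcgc
FOS: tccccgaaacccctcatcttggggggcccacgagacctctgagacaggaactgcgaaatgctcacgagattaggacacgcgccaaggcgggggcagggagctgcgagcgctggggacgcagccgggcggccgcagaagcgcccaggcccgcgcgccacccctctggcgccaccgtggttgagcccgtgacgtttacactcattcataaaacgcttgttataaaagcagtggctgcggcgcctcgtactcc
The EGR1 promoter held 2 CArG boxes, at −105 to −96 and at −83 to −74, counted from the base before the start site as −1. No match was found in the FOS window, and its textbook serum response element lies farther upstream than this window reaches. A CArG box stood in 1.16% of all 35116 RefSeq promoters of the same length, both strands searched. Of 57 promoter entries for 32 of the genes, EGR1 alone held a CArG box. The ETS core GGAAGT, which 19.5% of all promoters held on either strand, was found in 7 of the 57 entries. The full cAMP response element TGACGTCA, held by 1.65% of all promoters, was found in none. Partial or altered forms of this element were not searched, so its absence here covers the exact letters only. These matches describe the letters in the windows and say nothing about binding in these cells.

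Among the secreted ligands, 4 of 5 tested were higher in primed hESCs (FGF1, FGF2, FGF17 and FGF19) and FGF4 was lower. FGF2, the basic FGF that supports hESC self-renewal, had 48 and 63 naïve against 665 and 792 primed counts, a log2 fold change of 3.41 ± 0.19 (edgeR adjusted p = 1.04e-19). The FGF2 span, on chromosome 4 at 122826708 to 122898236, is shared with the antisense gene NUDT6, whose crossing transcript had 63, 69, 306 and 349 counts in naïve replicates 1 and 2 and primed replicates 1 and 2. After the largest enclosed transcript, also of NUDT6, was subtracted, FGF2 differed by 4.60. FGF4, which is expressed in the early embryo, had 49 and 98 naïve against 6 and 6 primed counts, a log2 fold change of −3.88 ± 0.40 (edgeR adjusted p = 2.09e-11). FGF4 and FGF2 thus differed in opposite directions, each by more than the spread between its replicates and under each scaling.

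FGF19, an endocrine-type FGF, had 0 and 1 naïve against 59 and 42 primed counts, a ratio of 81.6 with an exact 95% interval of 14.3 to 3256. FGF17 had 1 and 0 naïve against 27 and 17 primed counts, a ratio of 35.6 with an interval of 6.06 to 1436. Both ligands were close to undetected in naïve hESCs and low in primed hESCs. The fitted log2 fold change of FGF19 was 6.07, and 5.27 or 8.55 without naïve replicate 1 or 2. That of FGF17 was 4.87, and 7.39 or 3.94 without naïve replicate 1 or 2, with the calls kept. FGF1 had 18 and 10 naïve against 46 and 60 primed counts, a log2 fold change of 1.60 ± 0.36 (edgeR adjusted p = 1.39e-04), but SPRY4-AS1, which overlaps it, had 21, 16, 76 and 115 counts in naïve replicates 1 and 2 and primed replicates 1 and 2. FGF1 therefore remains uncertain.

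All 3 intracellular FGFs were higher in primed hESCs. These FGF-like proteins are not secreted and are known to bind voltage-gated sodium channels. FGF12 had 37 and 34 naïve against 272 and 346 primed counts, a log2 fold change of 2.81 ± 0.23. FGF13 had 90 and 87 against 368 and 379 counts, a difference of 1.77 ± 0.19 on the log2 scale, and FGF11 had 31 and 25 against 101 and 109 counts, a difference of 1.59 ± 0.28. The edgeR adjusted p values were 1.65e-14, 5.95e-11 and 3.07e-06, respectively. FGF11 is crossed by a transcript of another gene with more counts than its own, at 44 and 49 naïve against 150 and 155 primed counts. Like FGF1, FGF11 therefore remains uncertain. The gene FGF13-AS1 lies within the FGF13 span with 10 and 12 naïve against 113 and 96 primed counts. After these counts were subtracted, FGF13 still differed by 1.48.

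**Figure D3:**
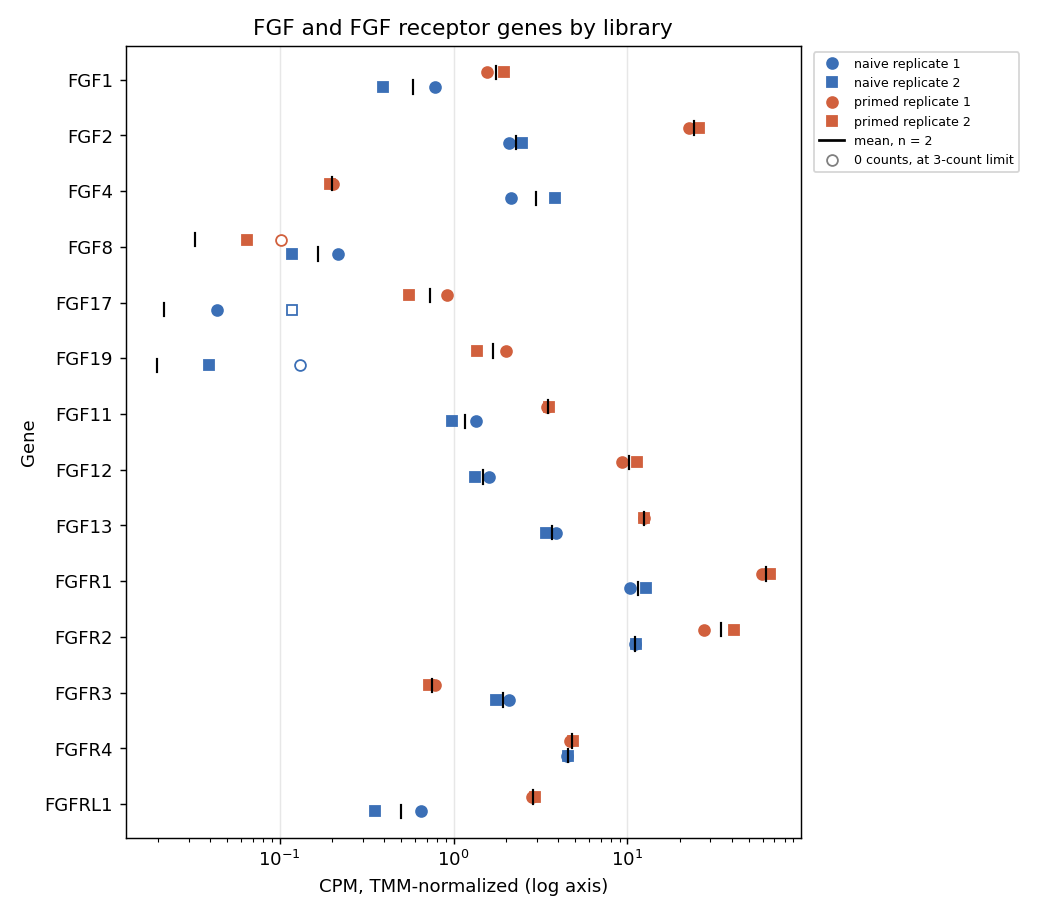
TMM-normalised CPM (x axis, log scale) of FGF and FGF receptor genes (y axis) in each library, with black ticks at the mean of 2 replicates and open symbols at the level of 3 counts for libraries with 0 counts. FGF2 and FGFR1 lie far to the right in primed libraries, FGF4 and FGFR3 lie to the right in naïve libraries, and FGFR4 stays between 4.51 and 4.86 CPM in all 4.

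Of 5 receptor genes, 3 were higher in primed hESCs (FGFR1, FGFR2 and FGFRL1), FGFR3 was lower and FGFR4 did not pass. FGFR1 had 237 and 327 naïve against 1745 and 2023 primed counts, a log2 fold change of 2.44 ± 0.16 (edgeR adjusted p = 1.82e-17). FGFR2 had 253 and 284 against 813 and 1262 counts, a log2 fold change of 1.64 ± 0.17 (edgeR adjusted p = 2.09e-11). FGFRL1, a receptor that lacks the kinase domain, had 15 and 9 against 83 and 90 counts, a log2 fold change of 2.53 ± 0.34 (edgeR adjusted p = 1.39e-08). Both receptors with most counts and the kinase-lacking receptor were thus higher in primed hESCs. FGFR3 went the other way, with 48 and 45 naïve against 23 and 22 primed counts and a log2 fold change of −1.35 ± 0.32 (edgeR adjusted p = 2.93e-04). FGFR4 had 104 and 116 naïve against 138 and 149 primed counts, a log2 fold change of 0.08 ± 0.21 in the TMM fit (edgeR adjusted p = 0.755), but it was called higher with library size scaling.

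Relative levels between the receptors were compared as CPM per kilobase of exon, a rough scale here since alignments in introns were counted too. In naïve hESCs FGFR2 stood at 2.53 ± 0.027, FGFR1 at 1.86 ± 0.29 and FGFR4 at 1.47 ± 0.0088 CPM per kilobase (mean ± SD, n = 2), followed by FGFR3 at 0.448 ± 0.052 and FGFRL1 at 0.138 ± 0.058. In primed hESCs FGFR1 came first at 10.1 ± 0.76, followed by FGFR2 at 7.88 ± 2.2, FGFR4 at 1.54 ± 0.039, FGFRL1 at 0.791 ± 0.022 and FGFR3 at 0.175 ± 0.011. The order of FGFR1 and FGFR2 in primed hESCs was not settled, since they differed by about the SD of FGFR2 and a transcript of another gene, ENSG00000255201, lies within the FGFR1 span with 33 and 73 naïve against 406 and 418 primed counts. With these counts subtracted, an alternative added after the data were seen, FGFR1 stood at 7.88 ± 0.78 CPM per kilobase in primed hESCs, level with FGFR2, and at 1.51 ± 0.13 in naïve hESCs, close to FGFR4, and its log2 fold change was 2.38. FGFR3 and FGFRL1 changed places between the states.

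The cascade between receptor and ERK had no common direction. Of its 12 genes, 4 were higher in primed hESCs (FRS2, SOS1, BRAF and MAP2K2), 4 were lower (GRB2, HRAS, ARAF and MAPK3) and 4 did not pass (FRS3, SOS2, NRAS and MAP2K1), with a median log2 fold change of −0.01. At the level of adaptors and exchange factors, FRS2 had 164 and 194 naïve against 308 and 354 primed counts, a log2 fold change of 0.58 ± 0.18, and SOS1 had 293 and 383 against 538 and 671 counts, a log2 fold change of 0.53 ± 0.16. GRB2, which links the receptor complex to SOS, had 1539 and 1812 naïve against 1094 and 1218 primed counts and fell by 0.84 on the log2 scale, a call lost with library size scaling, where the value was −0.20. The SOS1 call was lost without naïve replicate 1 or primed replicate 2. SOS2 and the docking protein FRS3 did not pass, with 178, 201, 180 and 176 counts for SOS2 and 16, 18, 26 and 26 counts for FRS3 in naïve replicates 1 and 2 and primed replicates 1 and 2. FRS3 was called higher under library size scaling (0.94 on the log2 scale), and SOS2 was called lower for the sum over transcripts (−0.67) and with the replicate block (−0.40).

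Among RAS and RAF genes, BRAF had 186 and 227 naïve against 444 and 632 primed counts, a log2 fold change of 1.07 ± 0.17 (edgeR adjusted p = 6.48e-07). ARAF had 283 and 294 against 185 and 203 counts, a log2 fold change of −0.88 ± 0.18 (edgeR adjusted p = 2.58e-05). The 2 RAF kinase genes thus differed in opposite directions, but the ARAF call was lost with library size scaling, and each span is crossed by a gene with more counts, NDUFB2 for BRAF (3285, 3278, 1673 and 1897 counts) and SYN1 for ARAF (706, 731, 905 and 903 counts, in the same order of libraries). HRAS had 25 and 36 naïve against 12 and 25 primed counts, and its call (log2 fold change −1.02 ± 0.37, edgeR adjusted p = 0.0141) was lost under library size, in DESeq2, and without naïve replicate 2 or primed replicate 1. NRAS had 653 and 803 against 748 and 700 counts and did not pass with edgeR (adjusted p = 0.0641), although it was called lower with the replicate block.

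The 2 MEK genes encode the kinases that phosphorylate ERK. MAP2K2 was higher in primed hESCs, at 90 and 67 against 194 and 229 counts (log2 fold change 1.11 ± 0.22, edgeR adjusted p = 1.69e-05). MAP2K1 was the more highly counted gene, at 431 and 562 against 738 and 769 counts, and did not pass with edgeR (adjusted p = 0.0785), but it was called higher under library size scaling, with the replicate block and with the filter of 50 counts. Its span is crossed by a transcript of SNAPC5 with 409 and 506 naïve against 625 and 599 primed counts. The level of MAP2K1 therefore remains uncertain. MAPK3, which encodes ERK1, was lower in primed hESCs, at 280 and 242 against 159 and 135 counts (log2 fold change −1.14 ± 0.19, edgeR adjusted p = 1.28e-06), and its call held under each scaling.

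**Figure D4:**
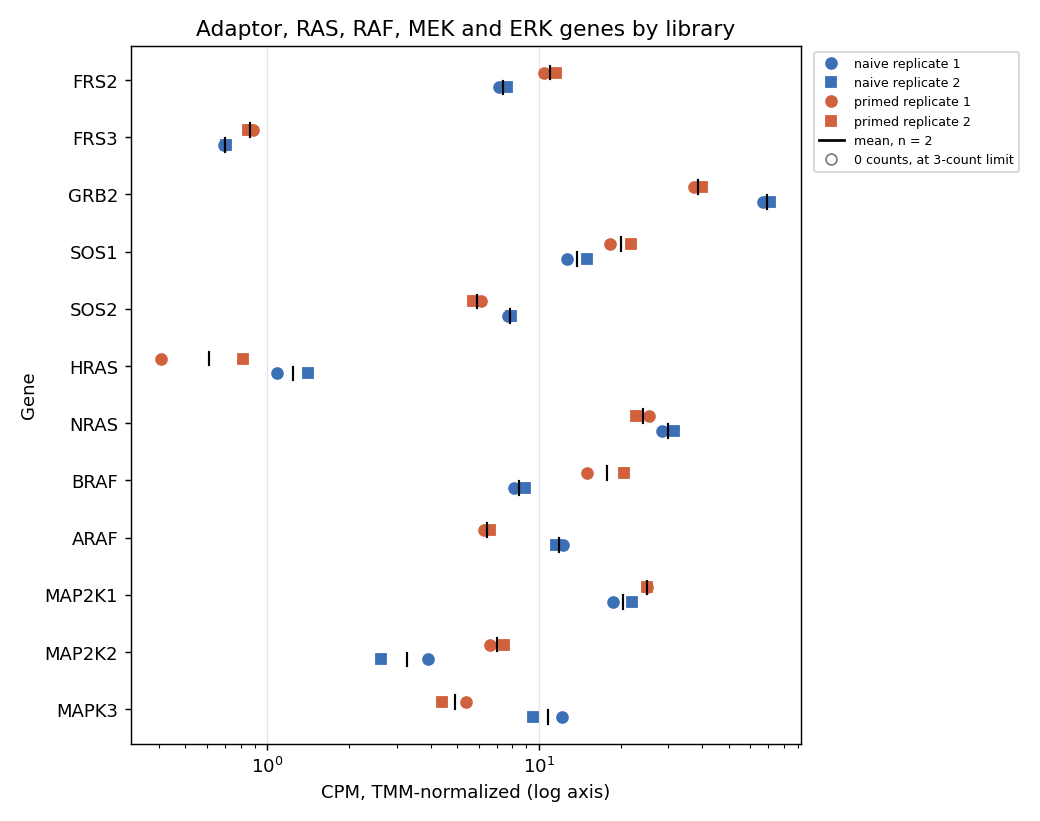
TMM-normalised CPM (x axis, log scale) of the 12 adaptor, RAS, RAF, MEK and ERK genes (y axis) in each library, with black ticks at the mean of 2 replicates. The groups lie close together for most genes, with primed libraries to the right for BRAF and MAP2K2 and naïve libraries to the right for GRB2, ARAF and MAPK3.

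Isoform usage was examined because these are long-read libraries. Across 408 isoforms of 36 of the genes, none was called by edgeR's diffSpliceDGE at an adjusted p under 0.05 with an isoform fraction changed by more than 10 percentage points, beside 0.556% of all 159577 isoforms tested. At an unadjusted p under 0.05 there were 19 isoforms, 4.66% of the 408. A DESeq2 likelihood ratio test gave 41 unadjusted and 15 at an adjusted p under 0.05. With the limit on the fraction it also gave 0 calls, beside 1395 of all 159577 isoforms tested. For the counts of 19, 41 and 15 no share over all isoforms was at hand, so they do not single out these genes. The changes ran from −8.75 to 4.84 points over the 380 isoforms with a fraction in both states, so none reached the limit of 10 points. A fraction could not be formed in a naïve library for 28 isoforms of ETV1, FGF17 and SPRED1. Under an adjusted p alone, 2 isoforms passed in edgeR, beside 4.27% of all isoforms tested. SPRED2-202, a protein-coding isoform, took 3.54 ± 0.69% of SPRED2 in naïve and 8.20 ± 0.24% in primed hESCs (mean ± SD, n = 2), and SOS1-212, which retains an intron, took 2.45 ± 0.0033% and 1.19 ± 0.020% of SOS1. Neither call was stable when a library was left out, and no member isoform passed with the filter of 50 counts. An alignment counted for each isoform whose span it overlapped, so isoforms of 1 gene share most of their counts and a switch between them would be blunted in these values.

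The pattern was also followed in 73 other genes of the pathway, of which 59 were tested. Of these, 24 were higher and 22 were lower in primed hESCs and 13 did not pass, with a median log2 fold change of −0.04, and library size scaling turned the split to 30 higher and 10 lower. Among 12 tested co-receptors and binding proteins, 7 were higher and 4 were lower. FGFBP3, a secreted carrier that releases FGFs from the matrix, had 4 and 2 naïve against 574 and 553 primed counts, a log2 fold change of 7.19 ± 0.32 (edgeR adjusted p = 1.07e-23). It entered the test only through its primed libraries, so this call is no separate support for its direction. SDC4, a heparan sulfate proteoglycan of the cell surface, had 1952 and 1855 against 352 and 370 counts, a log2 fold change of −2.71 ± 0.16 (edgeR adjusted p = 2.34e-19).

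Of 22 tested genes among further feedback and target genes, 10 were higher and 8 were lower, beside 37.4% and 32.6% of all genes tested. Their median log2 fold change was −0.20, against 1.30 for the member feedback inhibitors and 2.68 for the member transcription targets. PHLDA1, a target of ERK signalling, had 37 and 37 naïve against 570 and 566 primed counts, a log2 fold change of 3.63 ± 0.21 (edgeR adjusted p = 1.34e-19), and the ephrin receptor gene EPHA4 had 7 and 14 against 122 and 119 counts, a log2 fold change of 3.20 ± 0.33 (edgeR adjusted p = 1.78e-11). FOSL2 and JUNB, which encode subunits of AP-1, were lower in primed hESCs, at 114 and 103 against 12 and 8 counts for FOSL2 and 88 and 81 against 23 and 12 counts for JUNB, log2 fold changes of −3.73 ± 0.33 and −2.57 ± 0.32 with edgeR adjusted p values of 2.45e-13 and 2.12e-09. EPHA4 and FOSL2 each had a library under 10 counts in their lower state, so their calls followed in part from the filter. Among 20 further cascade genes, 3 were higher and 10 were lower, and among 5 tested further ligands, 4 were higher.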

How the data were processed

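Total RNA was extracted with Trizol, and Nanopore cDNA libraries were sequenced from 2 naïve and 2 primed H1 hESC samples. Per the file headers, the authors aligned reads with minimap2 to GRCh38 and deposited raw counts from featureCounts 2.0.0 on 244825 transcripts of Ensembl release 105, taken over whole transcript spans, without strand, an alignment counting for each transcript it overlapped and at each place it aligned. Transcripts were matched by identifier to GENCODE; the 2283 unmatched held 1.00% of counts and were not used.

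The gene value was the count of the gene's transcript with the largest mean count; for FGFR1 and HRAS this is annotated as subject to nonsense-mediated decay, and their calls held with a protein-coding transcript. A gene entered the test if 2 or more libraries reached 10 counts. The test used edgeR 4.0.16 (quasi-likelihood, TMM) in R 4.3.3 and Benjamini-Hochberg adjustment over all 27633 genes. CPM values are edgeR's normalised counts, relative to the sum of gene values of the library times its TMM factor. The SE was derived from the F statistic. Isoform usage was tested with diffSpliceDGE, the fraction being count over exonic length within the gene. Scripts were tested on simulated data. DESeq2 1.42.0, library size scaling, other filters, other gene values, a replicate block and leaving out each library were alternatives. Groups came from sample titles. The labels do not say whether replicates were separate cultures, so p-values measure only the spread between these samples. Replicates differed by more than counting noise (chi-square per degree of freedom 13.2 in naïve and 7.82 in primed). The members and lists were chosen with earlier results of these data known. All members are named; of the other pathway genes, the 3 called genes with the largest fold change in each direction with a mean count of at least 50 and groups that did not overlap are named, and markers are given by counts, with single genes named where they went against their list or carried its summed level, the latter chosen after the values were seen. The CArG box search was added after values were seen.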

Additional observations from a re-analysis of the deposited data

How the results depend on the processing

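The count of 33 called members ranged from 26 with a filter of 50 counts or a log2 fold change also beyond 1 to 36 with the replicate block, with 34 under library size, 30 in DESeq2, 33 for the canonical or coding transcript, 34 for the sum over transcripts, and 30 to 32 when 1 library was left out. These counts stayed within 1.5 times the main count. The replicate numbers were not shown to pair libraries: over 12443 genes the replicate differences of both states correlated at 0.132, with only 2 pairs, and the block added SOS2, NRAS and MAP2K1 to the calls and removed none. Under library size scaling, SOS2 (0.24), NRAS (0.33), DUSP5 (0.26) and SPRED2 (0.52) changed sign, none of them called in the TMM fit and SPRED2 then called higher; this scaling raises every fold change alike. Among all genes tested it gave 15541 higher and 4504 lower calls, against 10327 and 9008. With no threshold on the change of isoform fraction, 2 member isoforms were called instead of 0. Leave-one-out fits kept the genes of the full fit and assumed that a lone library varied like the other state. Precision was limited by low counts: FGF17, SPRED3, SPRY2, DUSP5, DUSP7, FRS3 and HRAS had at most 36 counts in any library.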
